A study of Homo sapiens with 27 samples.

Results

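Ribosome footprints were compared between IMR90 fibroblasts made senescent by ionizing radiation and IMR90 fibroblasts made senescent by etoposide. The members were the 3 Ribo-seq libraries titled as radiation-induced senescence and the 3 titled as etoposide-induced senescence, 6 of the 27 libraries of the series, taken by their titles and described over protein-coding genes. IMR90 is a human line of diploid fibroblasts from fetal lung, and the labels give both groups as wild type. The irradiated cells received 15 Gy and were harvested 10 days later. The etoposide cells received 50 µM of the drug in 3 treatments spread over 10 days and were harvested on the last of them. Both groups were grown in high-glucose DMEM with serum, non-essential amino acids and antibiotics, and both were lysed with cycloheximide, an elongation inhibitor. RNA-seq was made from the same lysates, and its 3 libraries per group were set beside the footprints. Agent, schedule and time since the last exposure differ together between the groups and cannot be told apart. Only 1 cell line was used, and the labels do not say that replicates were separate cultures. P-values thus measure the spread between libraries of the same state, which may be technical. Each main fit held all states of the series, so the spread within cycling, quiescent and thapsigargin-treated cells also enters these p-values.

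Senescence is a lasting arrest of the cell cycle that follows unrepaired DNA damage, among other stresses. Radiation breaks DNA directly, whereas etoposide traps topoisomerase II on cut DNA. Senescent fibroblasts secrete chemokines, cytokines, proteases and growth factors, together called the senescence-associated secretory phenotype, many of them under the control of NF-kB. In ribosome profiling, RNase removes mRNA that ribosomes do not cover and the protected fragments are sequenced, so a gene's footprint count reflects both its mRNA and the ribosomes on it. Secreted and membrane proteins are made on the endoplasmic reticulum (ER), where chaperones fold them. The integrated stress response lowers general initiation and favours the mRNA of ATF4, a transcription factor for amino acid synthesis genes.

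Total gene counts were 5556293, 2652013 and 3451589 in the irradiated footprint libraries and 6159333, 6980115 and 6165863 in the etoposide libraries, so every irradiated library was shallower than every etoposide library. The first principal component of the 6 libraries held 71.5% of the variance and separated the groups. Fibroblast identity was clear in both groups. All 10 fibroblast markers were detected, with summed levels of 22521 to 24816 CPM (counts scaled to a common library total, with TMM factors) in irradiated and 29919 to 32100 CPM in etoposide libraries. Of 6 epithelial, 6 endothelial, 6 leukocyte and 3 adipocyte markers, 1, 1, 1 and 0 passed the filter on low counts. Their summed levels did not exceed 0.351, 1.23, 1.51 and 0.176 CPM after irradiation or 0.623, 1.91, 3.42 and 0.175 CPM after etoposide, and CDH1, KRT5, CLDN5, CD68 and PLIN1 had no footprint in any of the 6. The leukocyte marker CD14 was lower after irradiation by 2.09 on the log2 scale (edgeR quasi-likelihood test, adjusted p = 0.0375), at 0.532 against 1.88 CPM. CD14 was tested in only 4 of the fits without 1 library, and that call was lost in 3 of them. These were the fits without irradiated library 1 (log2 difference -1.50), irradiated library 3 (-1.86) and etoposide library 1 (-2.25). The call was also lost with DESeq2 (adjusted p = 0.0859) and with no filter on low counts (0.0666). In such bulk lysates, fewer cells that express a gene cannot be told apart from less RNA per cell. A shift of all genes alike would leave CPM unchanged.

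The 2 senescent states differed widely, and most large differences were lower values after irradiation. Of 11763 protein-coding genes tested, 2551 (21.7%) differed at an adjusted p under 0.05 in edgeR's quasi-likelihood test, the threshold for every gene called below. After irradiation 914 were higher (7.77% of those tested) and 1637 lower (13.9%). These shares are the background for the counts of list members below. A difference of at least 2-fold was seen for 138 called genes that were higher and 1348 that were lower, and one of at least 8-fold for 3 and 65. The median log2 difference, irradiated minus etoposide throughout, was 0.56 over genes called higher, -1.45 over genes called lower and 0.04 over all genes tested. In 2546 of the 2551 called genes the 3 libraries of one group all lay above the 3 of the other. Such separation was seen, called or not, in 23.4% of all genes tested with irradiated libraries above and 23.8% with irradiated libraries below. Without irradiated library 1, 1500 genes were called, 454 higher and 1046 lower, and the higher count was 398 without etoposide library 2 and 553 without etoposide library 1. With the 6 libraries thinned to the total of the shallowest of them, 2138 genes were called.

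**Figure D1:**
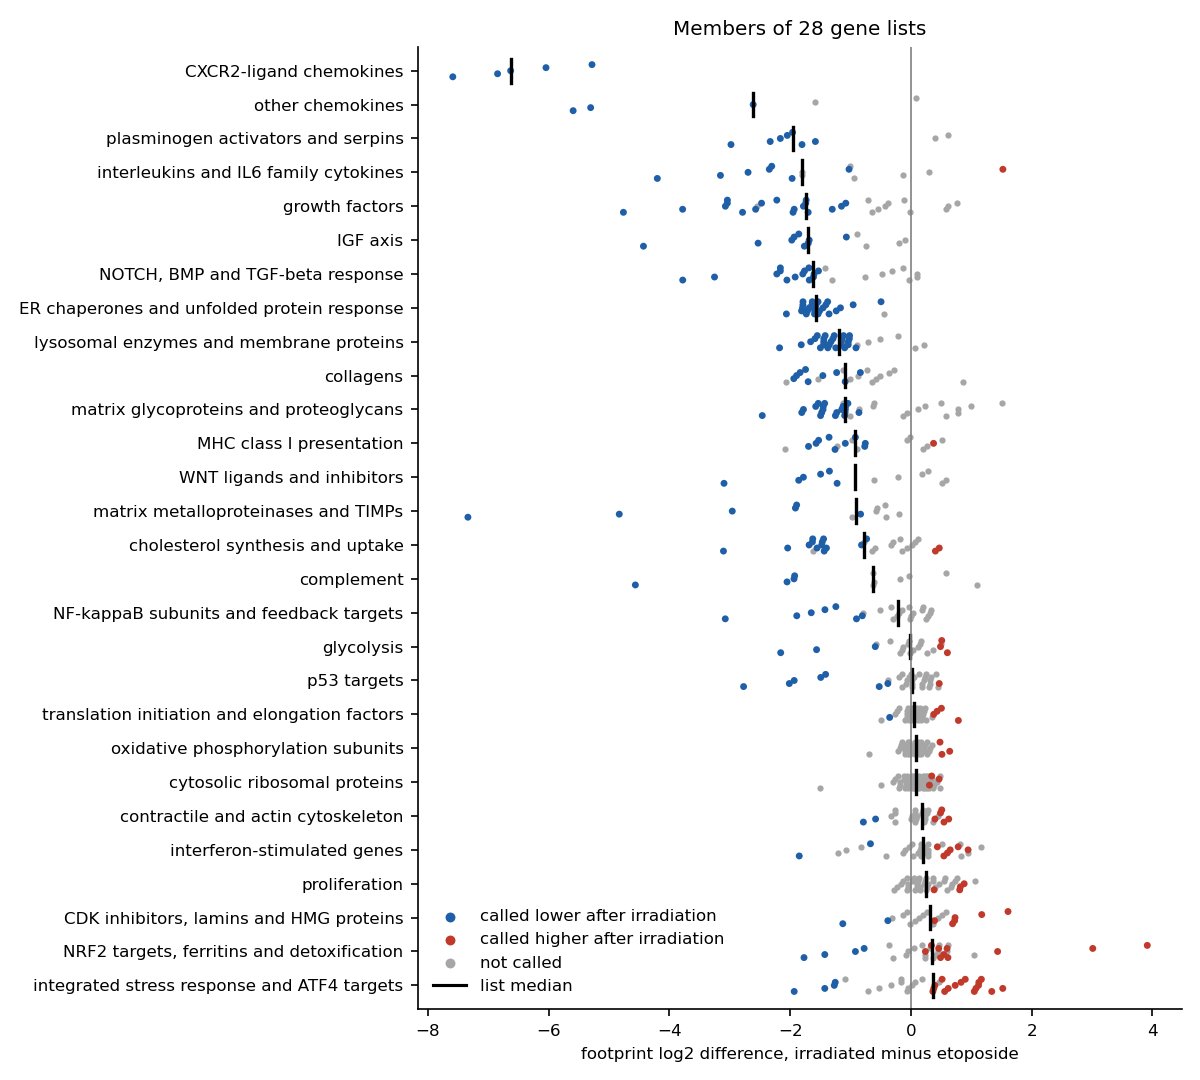
Log2 difference in footprints, irradiated minus etoposide (x axis), of each tested member of the 28 gene lists (rows, ordered by median). Coloured points passed an adjusted p of 0.05, grey points did not, and black bars are list medians: chemokines that bind CXCR2 lie far to the left and ER chaperones form a narrow band below 0, with a median of -1.58.

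The list with the lowest median was that of chemokines that attract neutrophils through the receptor CXCR2. All 5 tested members, CXCL1, CXCL3, CXCL5, CXCL6 and CXCL8, were lower after irradiation, with log2 differences from -5.28 to -7.59 and a median of -6.63, against 0.04 for all genes. DESeq2 called 4 of the 5 and gave CXCL8 no adjusted p. CXCL2 had 1 count over the irradiated and 20 counts over the etoposide libraries and was not tested. The 5 genes lie together on chromosome 4. Their promoters are shown because they share a letter pattern close to the start: the 150 bases before the RefSeq start (GRCh38.p14) are given 5′ to 3′ on the strand of the gene, with each match to GGANTTTCC, a form of the NF-kB binding motif, in capitals. The regions are chr4:73998678-73998827 for CXCL5 and chr4:74038690-74038839 for CXCL3, both on the minus strand. On the plus strand they are chr4:73740419-73740568 for CXCL8, chr4:73869243-73869392 for CXCL1 and chr4:73836528-73836677 for CXCL6.
CXCL5: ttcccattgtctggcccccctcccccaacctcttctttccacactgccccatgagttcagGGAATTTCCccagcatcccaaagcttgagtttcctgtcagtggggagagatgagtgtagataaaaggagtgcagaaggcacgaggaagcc
CXCL3: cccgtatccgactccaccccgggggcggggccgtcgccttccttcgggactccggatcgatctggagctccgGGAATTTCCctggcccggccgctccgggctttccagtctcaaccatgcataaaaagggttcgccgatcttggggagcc
CXCL8: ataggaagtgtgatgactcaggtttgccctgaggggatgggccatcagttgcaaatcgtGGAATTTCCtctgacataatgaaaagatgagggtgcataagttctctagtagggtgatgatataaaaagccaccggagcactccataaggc
CXCL1: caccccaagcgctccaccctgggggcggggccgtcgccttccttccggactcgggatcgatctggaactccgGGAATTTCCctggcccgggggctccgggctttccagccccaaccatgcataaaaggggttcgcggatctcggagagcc
CXCL6: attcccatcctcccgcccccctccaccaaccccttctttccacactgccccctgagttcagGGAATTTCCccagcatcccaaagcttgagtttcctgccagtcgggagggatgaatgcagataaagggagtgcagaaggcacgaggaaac

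In these stretches the match began 90, 78, 91, 78 and 89 bases before the start of CXCL5, CXCL3, CXCL8, CXCL1 and CXCL6. Searched on both strands of the window from 250 bases before to 50 after the start, the same letters were found in 549 of 27305 genes of the RefSeq promoter table (2.01%). Among tested genes with a promoter there, they were found in 46 of 1285 called lower (3.58%), 19 of 744 called higher (2.55%) and 230 of all 9689 (2.37%). Of 9 interleukins and IL6-family cytokines, IL32, which was called higher, IL6, which was called lower, and TSLP held them. So did 9 of 21 NF-kB subunits and feedback targets, a list in which 17 of 24 tested genes were not called. A match of letters is a description of the sequence and does not show binding. The motif was chosen after the values of the 5 chemokine genes had been seen.

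CXCL8, also called interleukin 8, had 2.81, 4.16 and 3.14 CPM in the irradiated libraries and 383, 196 and 388 CPM in the etoposide libraries. All 3 etoposide libraries were far above all 3 irradiated libraries, and etoposide library 2 was the lowest of its group. The log2 difference was -6.63 ± 0.87 (SE), or 99.0-fold lower (adjusted p = 0.000361). The irradiated mean was 3.37 ± 0.701 CPM (SD, n = 3). Cycling libraries had 2.28, 23.4 and 3.10 CPM and quiescent libraries 2.84, 9.70 and 12.9 CPM, so 1 cycling library was high and the other two were near the irradiated level. CXCL5 had 0.878, 0.756 and 1.14 CPM after irradiation and 349, 75.7 and 121 CPM after etoposide. The first etoposide library stood well above the other two, and without it the log2 difference was -6.70 in place of -7.59 (adjusted p = 0.00029 with all libraries). CXCL1 had 2.28, 4.16 and 4.57 CPM after irradiation and 276, 103 and 308 CPM after etoposide, a log2 difference of -6.04 ± 0.76 (adjusted p = 0.000308). Etoposide library 2 had the lowest level of its group for all 5 genes, yet it exceeded every irradiated library for each of them.

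CXCL3 rested on few reads after irradiation, 4 counts over the 3 libraries, with 0.351, 0 and 0.571 CPM against 53.6, 14 and 53.6 CPM after etoposide. Its log2 difference was -6.85 ± 1.06 (adjusted p = 0.000898). CXCL6 had 0.351, 1.89 and 2.86 CPM after irradiation and 118, 19.8 and 38.2 CPM after etoposide. Both groups spread more for CXCL6 than for CXCL8, and its log2 difference of -5.28 ± 0.78 moved to -4.24 without etoposide library 1 and to -6.03 without irradiated library 3. Together the 6 members of the list took 0.000698%, 0.00112% and 0.00131% of protein-coding footprints in the irradiated libraries and 0.112%, 0.039% and 0.0899% in the etoposide libraries.

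Chemokines for other receptors differed in the same direction where they were called. Of 15 such genes 5 were tested and 3 called, all lower after irradiation. CCL2, which attracts monocytes, had 44.1, 46.5 and 51.4 CPM after irradiation and 370.4, 239 and 257 CPM after etoposide. The irradiated libraries lay close to the cycling mean of 56.5 CPM, and the log2 difference was -2.61 ± 0.28 (adjusted p = 0.000127). CCL7, a related chemokine, had 3 counts after irradiation and 227 after etoposide. Scaled to library size this was 50.1-fold higher after etoposide, with a 95% counting interval of 16.9 to 245. CXCL10, an interferon-induced chemokine, had 1 and 68 counts, a ratio of 45.0 with a counting interval of 7.81 to 1804. CXCL12, which was near 8.63 CPM after irradiation and 8.15 CPM after etoposide, was not called (log2 difference 0.09, adjusted p = 0.912).

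Among interleukins and IL6-family cytokines, 14 of 20 were tested, 7 were lower and 1 was higher after irradiation, with a median log2 difference of -1.80. IL6, an inflammatory cytokine typical of senescent fibroblasts, had 11.6, 9.82 and 17.1 CPM after irradiation and 71.3, 39.1 and 86.4 CPM after etoposide. The groups did not overlap, and the log2 difference was -2.35 ± 0.51 (adjusted p = 0.00529). IL1B, an upstream inducer of other cytokines, was 6.49-fold lower after irradiation (adjusted p = 0.00206), with 3.42 ± 0.823 against 22.5 ± 10.2 CPM. LIF, of the IL6 family, was 3.91-fold lower (adjusted p = 0.00187), and TNFSF15, of the TNF family, 18.4-fold lower (adjusted p = 0.00118). IL33, an alarmin kept in the nucleus, had 8 counts after irradiation and 106 after etoposide (log2 difference -3.15, adjusted p = 0.00295). IL32 went the other way, with 78.1, 86.1 and 56.5 CPM after irradiation and 23.7, 21.3 and 31.8 CPM after etoposide. All irradiated libraries were above all etoposide libraries for this gene, by 1.52 ± 0.21 on the log2 scale (adjusted p = 0.000542).

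Of 24 tested NF-kB subunits, inhibitors and feedback targets, 7 were lower, none was higher and 17 were not called after irradiation, with a median log2 difference of -0.22. The called members included known targets: TNFAIP6, a secreted hyaluronan-binding protein, was 8.43-fold lower (adjusted p = 0.000931), and the adhesion receptors ICAM1 and VCAM1 were lower by 1.89 and 1.65 on the log2 scale (adjusted p = 0.000996 and 0.00328). NFKBIZ, a nuclear cofactor for a subset of NF-kB targets, had 44.8, 53.3 and 58.8 CPM after irradiation and 152, 111 and 157 CPM after etoposide. All 3 etoposide libraries were higher, and the log2 difference was -1.42 (adjusted p = 0.000473). The subunit RELA had 113 ± 4.70 CPM after irradiation and 93.0 ± 5.89 CPM after etoposide and was not called (log2 difference 0.28, adjusted p = 0.216), except in a fit restricted to the 6 libraries (0.038). PTGS2, the inducible cyclooxygenase, had 0.702, 0.378 and 0.857 CPM after irradiation and 39.6, 10.7 and 34.4 CPM after etoposide. This was a 41.0-fold difference with no overlap (adjusted p = 0.000337).

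**Figure D2:**
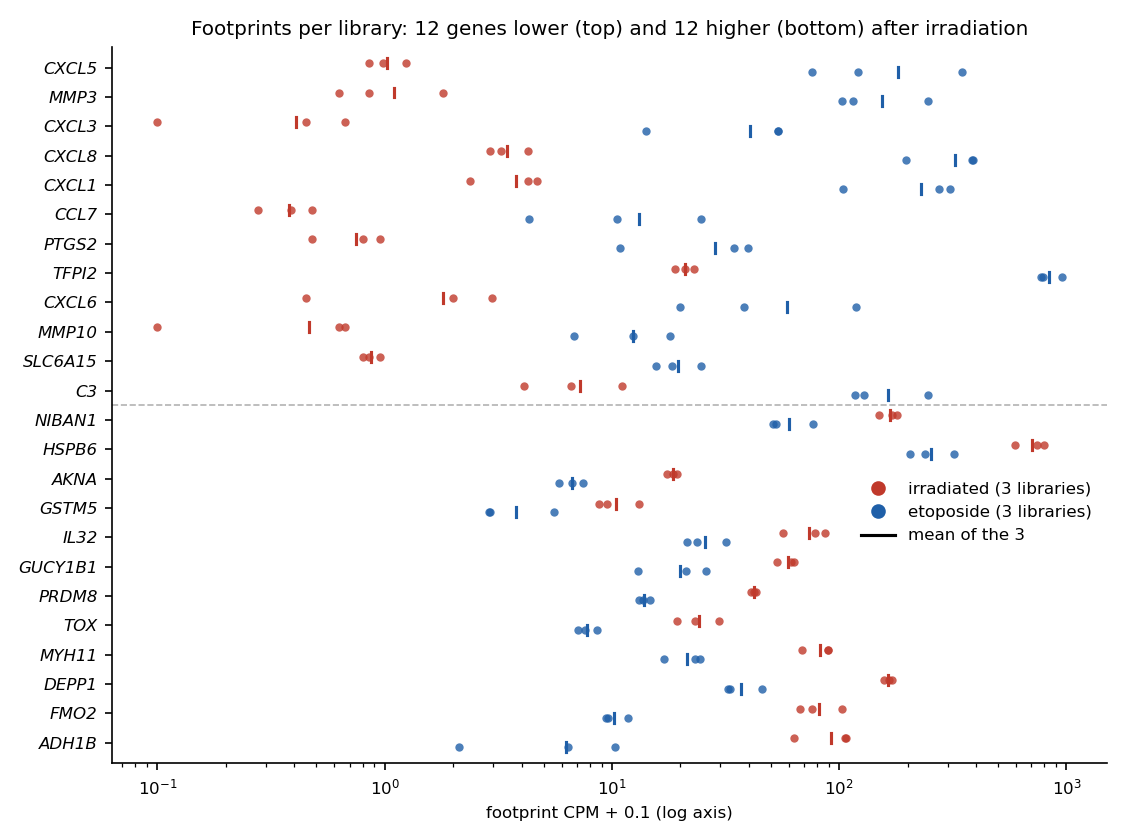
Footprint CPM plus 0.1 (log x axis) in each library for the 12 genes with the largest called negative and the 12 with the largest called positive log2 difference among those reaching a mean of 10 CPM. Points are libraries, 3 irradiated and 3 etoposide, and bars are group means: CXCL5, MMP3 and CXCL8 separate by about 2 decades on the axis, and ADH1B by more than 1 in the other direction.

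Of 12 tested matrix metalloproteinases and TIMPs, 6 were lower and none higher, with a median log2 difference of -0.90. MMP3, a stromelysin that cleaves many matrix proteins, had 0.527, 0.756 and 1.71 CPM after irradiation and 246, 102 and 114 CPM after etoposide. The log2 difference was -7.34 ± 0.93, a 162-fold difference (adjusted p = 0.000313). Its relative MMP10 was 28.5-fold lower (adjusted p = 0.000337) and rested on 5 counts after irradiation. MMP1, the interstitial collagenase, had 23.9, 23 and 18.6 CPM after irradiation and 192, 147 and 173 CPM after etoposide, while cycling cells had a mean of 232 CPM. The etoposide libraries were thus nearer to cycling cells, and the irradiated libraries were 7.78-fold below them (adjusted p = 0.000126). TIMP1, an inhibitor of these enzymes, had 1086, 1085 and 1112 CPM against 3777, 4222 and 4188 CPM, a log2 difference of -1.89 (adjusted p = 0.00104). MMP2, a gelatinase that was among the most abundant of the list, had 939 ± 81.7 and 1264 ± 72.8 CPM and was not called (adjusted p = 0.287), except in a fit restricted to the 6 libraries (0.000204).

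Of 9 tested plasminogen activators, receptor and serpin genes, 7 were lower after irradiation. SERPINF1 and SERPING1 were not called, though for both all irradiated libraries lay above all etoposide libraries, by up to 0.61 on the log2 scale. Such separation was seen in 23.4% of all genes tested, and in RNA both genes were called higher. SERPINE2, an inhibitor of thrombin and urokinase, had 122, 138 and 142 CPM after irradiation and 947, 1257 and 965 CPM after etoposide. Both groups were tight, and the difference was 7.89-fold (adjusted p = 0.000996). Urokinase, PLAU, was 5.03-fold lower (adjusted p = 0.000357). TFPI2, a secreted inhibitor of plasmin and other serine proteases, was among the 12 genes with the largest differences, with 18.8, 20.8 and 22.8 CPM against 954, 774 and 785 CPM. Etoposide libraries were also far above the cycling mean of 79.8 CPM for this gene, and the log2 difference was -5.34 ± 0.56 (adjusted p = 0.000126).

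Members of the IGF axis and growth factors were lower where they were called. In the IGF axis 9 of 13 tested genes were lower and none higher, with a median of -1.70. STC1, a secreted glycoprotein that inhibits the IGFBP-cleaving PAPPA proteases, had 5.09, 3.40 and 4.28 CPM after irradiation and 83.9, 75.0 and 127 CPM after etoposide. Its log2 difference of -4.43 ± 0.36 had an adjusted p of 2.37e-05. IGFBP3 and IGFBP7, carriers of IGF or related ligands, were 5.78-fold and 3.82-fold lower (adjusted p = 0.00544 and 0.00261). IGFBP5, the most abundant member, had 3117, 2999 and 3149.8 CPM after irradiation and 3648, 3363 and 3638 CPM after etoposide. Its groups did not overlap, but the difference of -0.20 was not called (adjusted p = 0.728), and it was called only in a fit restricted to the 6 libraries (adjusted p = 0.0347).

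Of 29 tested growth factors and receptors, 18 were lower and none higher, with a median log2 difference of -1.73. INHBA, which forms activin A, had 20.9, 23 and 28.8 CPM after irradiation and 197, 205 and 194 CPM after etoposide. It was 8.23-fold lower (adjusted p = 0.000768), and cycling cells lay between the groups at 97.5 CPM. Hepatocyte growth factor, HGF, was 6.91-fold lower (adjusted p = 0.000372), the lymphatic factor VEGFC 3.87-fold lower (adjusted p = 0.000339) and FGF2 2.22-fold lower (adjusted p = 7.87e-05). CCN2, a matricellular target of TGF-beta and YAP, had 278 ± 36.4 CPM against 1294 ± 340.5 CPM (adjusted p = 0.00181). The EGF receptor ligand EREG was 13.7-fold lower (adjusted p = 0.00492). Its relative AREG had 2 counts after irradiation and 88 after etoposide, a ratio of 29.1 with a 95% counting interval of 7.83 to 244, and its call (adjusted p = 0.0486) was lost when any 1 library was left out (0.0572 to 0.167). FGF7, a mitogen for epithelium, was high in both groups, with 453 ± 49.9 and 491 ± 21.7 CPM, and was not called (adjusted p = 0.713).

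Complement genes showed the same direction in 4 of 11 tested members, and none was higher. C3, the central complement component, had 6.50, 11 and 4.00 CPM after irradiation and 245, 117 and 128 CPM after etoposide. Etoposide library 1 was the highest, and the log2 difference was -4.56 ± 0.68 (adjusted p = 0.000786). CD55, which limits complement on host surfaces, was lower by 1.93 (adjusted p = 0.00109). C1S, a protease of the first complement complex with the highest level in the list, had 299.8 ± 39.1 against 465 ± 33.6 CPM and was not called (adjusted p = 0.147), though the fit restricted to the 6 libraries called it (adjusted p = 6.96e-06).

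Fewer genes were much higher after irradiation, and they included enzymes of alcohol and xenobiotic metabolism and some smooth muscle genes. ADH1B, an alcohol dehydrogenase, had 107, 63.5 and 106 CPM after irradiation and 6.31, 2.02 and 10.2 CPM after etoposide. Its log2 difference of 3.92 ± 0.46, or 15.1-fold, was the largest among called genes that reached a mean of 10 CPM (adjusted p = 0.000271). Cycling cells had 1.57 CPM and quiescent cells 26.4 CPM on average. FMO2, a flavin-containing monooxygenase, had 102, 75.6 and 66.8 CPM against 9.46, 9.34 and 11.6 CPM, and it too was higher in quiescent (23.6 CPM) than in cycling cells (2.83 CPM). Its difference was 3.01 ± 0.20 (adjusted p = 9.76e-06). DEPP1, which was described as a target of FOXO factors, had 166, 158 and 171 CPM against 32.2, 45.5 and 32.8 CPM (log2 difference 2.16, adjusted p = 9.76e-06).

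MYH11, the smooth muscle myosin heavy chain, had 89.0, 89.2 and 68.5 CPM after irradiation and 24.2, 23 and 16.8 CPM after etoposide. The lowest irradiated library was well above the highest etoposide library, with a log2 difference of 1.94 ± 0.44 (adjusted p = 0.00657). The small heat shock protein HSPB6, which is abundant in muscle, was 2.79-fold higher, at 793, 741 and 592 CPM against 204, 238 and 319 CPM (adjusted p = 0.000489). The filament protein DES was higher by 2.08 (adjusted p = 0.0249), a call lost without irradiated library 1 (1.98), irradiated library 2 (1.89), etoposide library 1 (1.77) or etoposide library 3 (2.19). Of the 4 smooth muscle markers, MYH11 and DES were thus called and SMTN and CNN1 were not. SMTN went the other way, with a log2 difference of -0.26 (-0.46 to -0.13 without 1 library). The summed level of the 4 markers was 280.4 to 334 CPM in irradiated and 191 to 289 CPM in etoposide libraries. Their part in other differences was not tested.

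The remaining members of the 12 highest differences were between 2.79-fold and 3.08-fold higher. They were the transcription factors TOX and PRDM8 (adjusted p = 0.000322 and 9.48e-05), GUCY1B1, a subunit of the nitric oxide receptor guanylate cyclase (0.000853), the centrosomal protein AKNA (0.0025), the stress-induced NIBAN1 (0.000127), IL32 and the glutathione transferase GSTM5. GSTM5 was called at an adjusted p of 0.0101 and lost its call without irradiated library 1 (log2 difference 1.29 in place of 1.51). It has close paralogs, and only reads that mapped to 1 place were counted, so its level is uncertain. TOX and PRDM8 in irradiated cells, at 24.0 and 42.0 CPM, were near their cycling means of 30.7 and 49.4 CPM, whereas etoposide cells had 7.68 and 13.7 CPM.

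ER chaperones and genes of the unfolded protein response were lower after irradiation almost without exception. Of 26 tested members 25 were called lower and none higher, with a median log2 difference of -1.58 and a range of -0.44 to -2.06. In all 26, the 3 irradiated libraries lay below the 3 etoposide libraries, which was seen in 23.8% of all genes tested. HSPA5 (BiP), the main HSP70 of the ER, and HSP90B1, its HSP90, are shown with their promoters because both hold the full ER stress response element, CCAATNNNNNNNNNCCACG, which was found in only 25 of 27305 genes of the promoter table (0.0916%). The 200 bases before the RefSeq start are given 5′ to 3′, chr9:125241344-125241543 on the minus strand for HSPA5 and chr12:103930210-103930409 on the plus strand for HSP90B1 (GRCh38.p14), with matches on either strand in capitals.
HSPA5: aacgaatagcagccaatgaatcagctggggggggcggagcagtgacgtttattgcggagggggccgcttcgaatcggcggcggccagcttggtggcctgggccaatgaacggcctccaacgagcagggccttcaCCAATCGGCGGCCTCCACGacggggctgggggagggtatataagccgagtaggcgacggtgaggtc
HSP90B1: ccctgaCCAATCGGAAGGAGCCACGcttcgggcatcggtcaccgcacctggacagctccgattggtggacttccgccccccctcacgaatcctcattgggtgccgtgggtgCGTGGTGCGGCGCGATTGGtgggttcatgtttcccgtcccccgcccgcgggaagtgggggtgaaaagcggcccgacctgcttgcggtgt

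The match in HSPA5 began 66 bases before the start, and the 2 in HSP90B1 began 194 and 89 bases before it, the second on the opposite strand. In the 300-base window the element was present in 7 of the 23 tested list members with a promoter, namely CALR, CANX, CRELD2, HSP90B1, HSPA5, PDIA6 and XBP1. It was present in 9 of 1285 genes called lower (0.7%), in 0 of 744 called higher and in 16 of 9689 tested (0.165%). Only 1 gene of the table held both this element and GGANTTTCC. The element was chosen with the values known.

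HSPA5 had 319.6, 369 and 320.1 CPM after irradiation and 1175, 1251 and 1113 CPM after etoposide. The groups were tight and well apart, with a log2 difference of -1.81 ± 0.28 (adjusted p = 0.000872). Cycling cells had 1090.0 ± 53.7 CPM, close to the etoposide level, and quiescent cells 640.4 ± 312 CPM. HSP90B1 had 337, 409 and 310.1 CPM against 1292, 1211 and 1137 CPM (-1.79, adjusted p = 0.00148). Calreticulin, CALR, a lectin chaperone and the most abundant of the list, had 731, 746 and 718 CPM against 2286, 2358 and 1874 CPM (-1.57, adjusted p = 0.00211). The disulfide isomerase P4HB was 3.10-fold lower (adjusted p = 0.00153), and SYVN1, a ubiquitin ligase of ER-associated degradation, 4.18-fold lower (adjusted p = 0.00423).

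The 3 sensors of ER stress were lower as well: ERN1 (IRE1) by 1.58, EIF2AK3 (PERK) by 1.45 and ATF6 by 1.17 on the log2 scale (adjusted p = 0.00282, 0.00932 and 0.00531). XBP1, the transcription factor made active by IRE1, had 27.7 ± 3.11 against 37.9 ± 4.98 CPM and was not called (-0.44, adjusted p = 0.145), though its RNA was (log2 difference -0.81, adjusted p = 0.00603) and a fit of footprints restricted to the 6 libraries called it (0.0109). HERPUD1, a member of the degradation machinery, was called at -0.49 (adjusted p = 0.0461), and leaving out any 1 library ended that call (adjusted p = 0.0605 to 0.192).

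Families of mostly secreted or membrane proteins had medians below that of all genes. These families were chosen after the values of single genes had been seen, so their counts are descriptions. Of 23 subunits of the translocon, signal peptidase and oligosaccharyltransferase, 20 were lower and none higher, with a median log2 difference of -1.43. Of 208 tested solute carriers 102 were lower and 1 higher (median -1.16), of 14 integrin subunits 7 were lower and 1 higher (median -1.32), and of 10 laminin subunits 9 were lower (median -1.46). Glycosyltransferases had 20 lower and 1 higher of 38 (median -1.11), ADAM and ADAMTS proteases 10 lower of 20 (median -1.15), and TMEM proteins 73 lower of 153 (median -0.86). Without irradiated library 1 the lower counts were 62 for solute carriers, 41 for TMEM proteins and 5 for laminins, and without irradiated library 3 the count of TMEM proteins was 48. The solute carriers were taken by symbol and include mitochondrial carriers, which are not made on the ER. Families with mostly cytosolic, mitochondrial or nuclear products lay near the median of all genes. Proteasome subunits were at 0.03, mitochondrial ribosomal proteins at 0.05, zinc finger proteins at 0.11, and hnRNP and SR proteins at 0.13. The COPI and COPII coats, which are cytosolic and act on ER and Golgi membranes, were at -0.05. Of their 19 subunits 4 were lower and 1 higher, or 26.3% called against 21.7% of all genes. With any 1 library left out, 1 or 2 were lower.

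The share of all protein-coding footprints was also computed for each class, without TMM factors. A share also rises where other classes take less of the total. ER chaperones took 0.367%, 0.391% and 0.349% in the irradiated libraries, 1.05%, 1.06% and 0.97% in the etoposide libraries and 1.03%, 1.12% and 1.14% in cycling cells. Translocon and related subunits took 0.323%, 0.328% and 0.311% after irradiation, 0.6%, 0.677% and 0.626% after etoposide and 0.631%, 0.690% and 0.721% in cycling cells. In both classes the irradiated libraries were the lowest of the 3 states and the etoposide libraries were near cycling cells. Proteasome subunits, by contrast, took 1.07%, 1.08% and 1.09% after irradiation against 0.945%, 0.943% and 0.976% after etoposide. With TMM factors the gap was smaller, with summed levels of 10242 to 10578 CPM against 9888 to 9924 CPM. Of the 46 tested proteasome subunits 1 was called higher and 1 lower, with a median log2 difference of 0.03. Quiescent replicate 1 had low shares of ER chaperones (0.284%) and translocon subunits (0.245%) beside 0.666% and 0.759%, and 0.389% and 0.402%, in the other quiescent libraries. This library also enters the shared estimate of spread, and its part in these results was not tested.

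**Figure D3:**
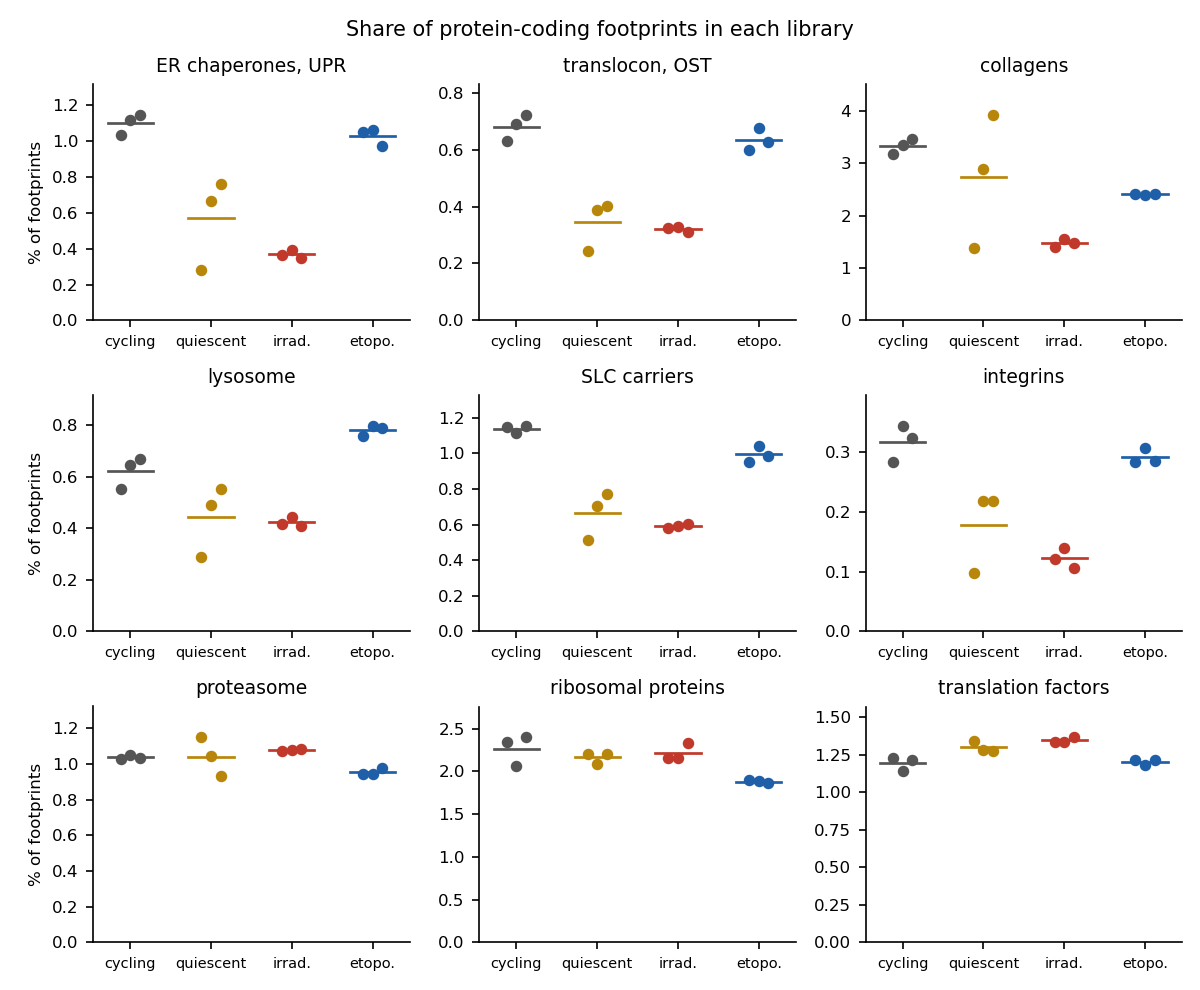
Percent of protein-coding footprints (y axes, 1 panel per gene class) in the 3 libraries of each of 4 states (x axes); points are libraries and bars are means. The first 6 classes are lower in irradiated than in etoposide libraries, as for ER chaperones (0.349% to 0.391% against 0.97% to 1.06%). Proteasome subunits, ribosomal proteins and translation factors have slightly higher shares. The shares are without TMM factors and also rise where other classes take less.

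Collagens and matrix genes that were called were lower after irradiation. Of 21 tested collagen chains 9 were lower and none higher (median -1.09), and of 35 matrix glycoproteins and proteoglycans 20 were lower and none higher (median -1.09). Without irradiated library 1 the counts were 5 and 12, and without irradiated library 3 that of matrix glycoproteins was 13. A fit restricted to the 6 libraries called 18 collagens lower and 1 higher. VCAN, the proteoglycan versican, had 71.3, 99.7 and 78.2 CPM after irradiation and 476, 429 and 461 CPM after etoposide. It was 5.51-fold lower (adjusted p = 0.00137), and the basement membrane chains COL4A5 and COL4A1 were lower by 1.94 and 1.89 (adjusted p = 0.0025 and 0.00806). The adhesive proteins TGFBI and POSTN were lower by 1.81 and 1.78 (adjusted p = 0.00172 and 0.00166). Collagen I was less different: COL1A2, the most abundant collagen, had 4455, 5020.1 and 4738 CPM against 7879, 8712 and 8795 CPM, a difference of -0.84 (adjusted p = 0.0349) that was not called when any 1 library was left out (0.0597 to 0.116). COL1A1 was not called (-0.52, adjusted p = 0.21), except in the fit restricted to the 6 libraries (5.01e-05).

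Fibronectin, FN1, had 3839, 4891 and 3765 CPM after irradiation and 8726, 8482 and 8541 CPM after etoposide, a 2.06-fold difference (adjusted p = 0.0233). The groups did not overlap, yet the call was lost without irradiated library 1 (log2 difference -0.99), irradiated library 3 (-0.96), etoposide library 1 (-1.03) or etoposide library 3 (-1.03). Of 27 contractile and actin genes 5 were higher and 2 lower, with a median of 0.18. This is 25.9% called, near the 21.7% of all genes tested. The lower count was 1 without irradiated library 1, irradiated library 3 or etoposide library 1 and 5 without etoposide library 3. TAGLN, an actin-binding protein of smooth muscle and myofibroblasts, had 4169, 4569 and 4582 CPM after irradiation and 3267, 3382 and 2460.0 CPM after etoposide (0.55, adjusted p = 0.00893). The light chain MYL9 and the nonmuscle heavy chain MYH10 were higher by 0.49 and 0.63 (adjusted p = 0.00937 and 0.00208). VCL, the adhesion protein vinculin, was lower by 0.79 on the log2 scale (adjusted p = 0.00975), and the beta-actin gene ACTB was not called (0.27, adjusted p = 0.209).

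Lysosomal genes were lower after irradiation in 26 of 32 tested members, and none was higher (median -1.20), and 17 were lower without irradiated library 1. The protease CTSB had 386, 428 and 364 CPM after irradiation and 1123, 1062 and 1015 CPM after etoposide, a log2 difference of -1.44 (adjusted p = 0.00178). The sialidase NEU1 was lower by 1.66, the membrane protein LAMP1 by 1.32 and GLB1, whose product is the beta-galactosidase stained in senescent cells, by 1.10 (adjusted p = 0.00275, 0.00369 and 0.00103). For GLB1 the irradiated mean was 67.5 CPM, the etoposide mean 144 CPM and the cycling mean 118 CPM. FUCA1, a fucosidase, had the largest difference of the list (-2.18, adjusted p = 0.0355) but only 24 counts after irradiation, and it was not called when any 1 library was left out (0.0604 to 0.130). PSAP, the saposin precursor and the most abundant member, was lower by 0.91 on the log2 scale (adjusted p = 0.0149), a call that was lost without irradiated library 1 (-0.90) or irradiated library 3 (-0.82).

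Cholesterol genes that were called were mostly lower after irradiation. Of 27 tested 13 were lower (48.1%) and 2 higher (median -0.78), where 13.9% of all genes were lower and 7.77% higher. The higher count was thus near the share of all genes. In RNA 14 were called lower and 0 higher. NPC1, a lysosomal membrane protein that exports cholesterol, had 6.32, 10.2 and 10.3 CPM after irradiation and 76.7, 75.5 and 71.5 CPM after etoposide. This was 8.60-fold lower (adjusted p = 0.000441), and the cycling mean of 36.3 CPM lay between the groups. The cytosolic kinase PMVK and the cyclase LSS were higher by 0.47 and 0.41 (adjusted p = 0.01 and 0.00308).

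ATF4 and several of its known targets were higher after irradiation. Of 32 tested genes of the integrated stress response, 16 were higher and 4 lower, with a median log2 difference of 0.37. ATF4 had 264, 257 and 257 CPM after irradiation and 134, 145 and 158 CPM after etoposide. The groups were apart by several times their spread, the log2 difference was 0.83 ± 0.12 (adjusted p = 0.000743), and cycling and quiescent means of 186 and 213 CPM lay between them. DDIT3 (CHOP), a transcription factor of prolonged stress, had 26.9, 23.8 and 40.8 CPM against 9.99, 15.6 and 16.5 CPM (1.12, adjusted p = 0.0042). TRIB3, a pseudokinase induced by both, had 153, 145 and 166 CPM against 58.5, 53.4 and 71.9 CPM (1.34, adjusted p = 0.000327). No irradiated library overlapped an etoposide library for any of these 3 genes.

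Enzymes of serine synthesis and aminoacyl-tRNA synthetases were among the members that were higher. PHGDH, the first enzyme of serine synthesis, had 308, 321 and 348 CPM after irradiation and 148, 120.0 and 167 CPM after etoposide (1.17, adjusted p = 0.000169). It was highest in cycling cells, at a mean of 506 CPM. PSAT1, the next enzyme, and the stress-induced chromatin protein NUPR1 were higher by 1.05 and 1.13 (adjusted p = 0.000191 and 0.000442). The synthetases WARS1 and AARS1 were higher by 0.90 and 0.62 (adjusted p = 0.000169 and 0.000743). Asparagine synthetase, ASNS, had the largest positive difference of the list (1.52, adjusted p = 0.0189) but 39 and 20 counts in all, and its call was lost without irradiated library 1 (1.38) or etoposide library 2 (1.29).

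The 4 members that were lower encode a secreted protein and amino acid transporters. GDF15, a secreted stress cytokine that is also a p53 target, had 84.3, 108 and 104 CPM after irradiation and 363, 375 and 388 CPM after etoposide (-1.93, adjusted p = 0.00115). The cystine transporter SLC7A11 and its partner SLC3A2 were lower by 1.43 and 1.27 (adjusted p = 0.00275 and 0.00774). The arginine transporter SLC7A1 was lower by 1.25 on the log2 scale (adjusted p = 0.0304), with an RNA difference of 0.11 that was not called. Its footprint call was lost in 5 of the 6 fits without 1 library, all but the one without etoposide library 3 (adjusted p = 0.0462 to 0.117 over the 6). PPP1R15A (GADD34), which restores initiation by guiding the eIF2alpha phosphatase, had 70.1, 84.6 and 91.7 CPM against 95.5, 83.3 and 62.3 CPM and was not called (0.03, adjusted p = 0.951).

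**Figure D4:**
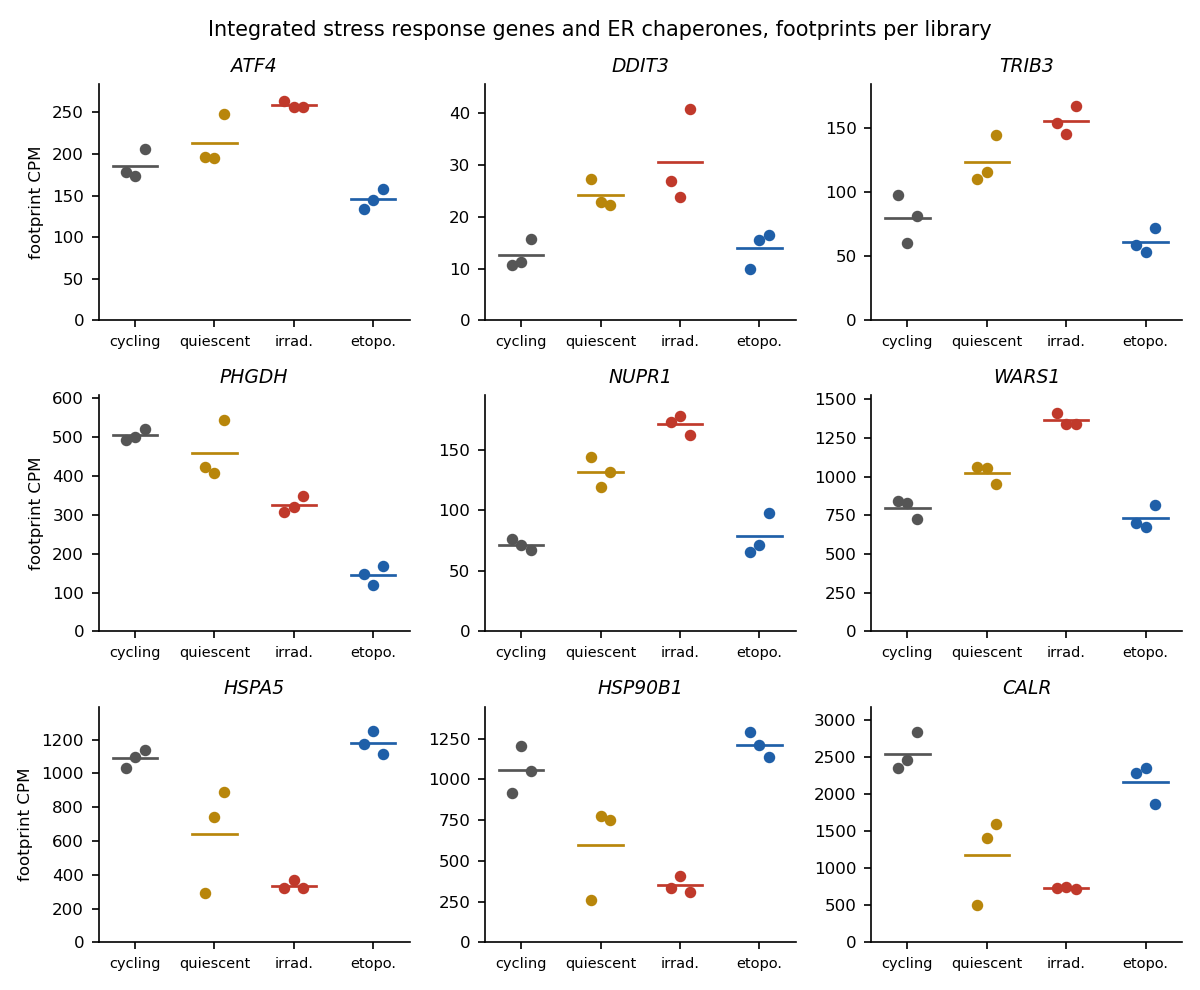
Footprint CPM (y axes, from 0) of 6 genes of the integrated stress response and 3 ER chaperones in the libraries of 4 states (x axes); points are libraries and bars are means. ATF4, DDIT3, TRIB3, NUPR1, WARS1 and PHGDH are higher in irradiated than in etoposide libraries, whereas HSPA5, HSP90B1 and CALR are lower.

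Of 4 markers of senescent arrest, CDKN1A was called and CDKN2A, MKI67 and LMNB1 were not. CDKN1A (p21), the CDK inhibitor induced by p53, had 1979.7, 2102 and 2335 CPM after irradiation and 2889, 2693 and 2778 CPM after etoposide. Both groups were far above the cycling mean of 666 CPM, and the difference between them of -0.38 (adjusted p = 0.0356) was not called when any 1 library was left out (0.0516 to 0.144). CDKN2A, which encodes p16, had 55.4 ± 5.56 and 57.7 ± 10.4 CPM (-0.06, adjusted p = 0.912). MKI67, a marker of dividing cells, had 12.8, 12.1 and 8 CPM after irradiation and 13.1, 9.81 and 8.85 CPM after etoposide, with overlapping groups (0.07, adjusted p = 0.916) and a cycling mean of 205 CPM. LMNB1, the lamin lost in senescence, had 14.2 and 10.4 CPM (0.44, adjusted p = 0.109) against 191 CPM in cycling cells.

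Of 39 tested proliferation genes 4 were higher after irradiation and none lower (median 0.24). This is 10.3% called against 21.7% of all genes, and near the 7.77% of all genes that were higher. KIF20A, a kinesin of cytokinesis, was 1.84-fold higher (17.9 against 9.67 CPM, adjusted p = 0.00669), and thymidine kinase TK1 1.75-fold higher (13.6 against 7.66 CPM, adjusted p = 0.00581). Both remained far below their cycling means of 269 and 142 CPM. Among 20 CDK inhibitors, lamins and HMG proteins, 6 were higher and 2 lower. The higher count was 3 without irradiated library 1 or etoposide library 2, and the lower count was 0 or 1 when any 1 library was left out. CDKN1B (p27) had 52.9, 51.4 and 49.7 CPM after irradiation and 31.0, 31.3 and 30.9 CPM after etoposide (0.72, adjusted p = 0.000657), and CDKN2C (p18) was higher by 1.61 (adjusted p = 0.00376) on 46 and 22 counts.

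Of 32 tested p53 targets 24 were not called, 7 were lower and 1 was higher (median 0.02), or 25% called against 21.7% of all genes. MDM2, the ubiquitin ligase that limits p53, had 472 ± 29.7 and 523 ± 28.7 CPM and was not called (-0.15, adjusted p = 0.356). Apart from CDKN1A and PLK3, the members that were lower encode secreted or membrane proteins: GDF15, the death receptors FAS (-1.49, adjusted p = 0.000302) and TNFRSF10B (-1.41, adjusted p = 0.00243), the decoy receptor TNFRSF10C and the Golgi ceramidase ACER2 (-2.77, adjusted p = 0.0109). BAX, which permeabilizes mitochondria, was higher by 0.47 (adjusted p = 0.005).

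Interferon-stimulated genes were called about as often as all genes, 23.5% against 21.7%, but most of their calls were higher. Of 34 tested 6 were higher and 2 lower after irradiation (median 0.21), where 7.77% of all genes were higher and 13.9% lower. In RNA 12 of 33 were higher and 1 lower. The higher footprint count fell to 3 without irradiated library 1 or etoposide library 2. The lower footprint count fell to 1 without any of 5 libraries, all but etoposide library 1. The antiviral membrane protein IFITM3 had 177, 169.6 and 205 CPM against 91.6, 111 and 119 CPM (0.78, adjusted p = 0.00758). IFIT2, an RNA-binding effector, was higher by 0.95 (adjusted p = 0.0107), a call lost without irradiated library 1 (0.83) or etoposide library 1 (0.83). In the MHC class I pathway 9 of 19 genes were lower and 1 higher (median -0.92), and 5 were lower without irradiated library 1 or irradiated library 3. The peptide transporter TAP1 was 3.24-fold lower (adjusted p = 0.00291).

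Listed WNT ligands and inhibitors, and genes of NOTCH, BMP and TGF-beta responses, were lower after irradiation where called. Of 12 tested WNT ligands and inhibitors 6 were lower and none higher (median -0.92). WNT5A and the WNT inhibitor DKK1 were 3.44-fold and 3.62-fold lower (adjusted p = 0.00273 and 0.000786). WNT16, a ligand known from senescent fibroblasts, had 7 and 95 counts and was lower by 3.10 on the log2 scale (adjusted p = 0.0139), a call lost without irradiated library 1 (-2.44). Of 23 genes of NOTCH, BMP and TGF-beta responses 14 were lower and none higher (median -1.61). The receptor NOTCH2 was 3.04-fold lower (adjusted p = 0.00275), and the BMP-induced ID1 and ID3 4.48-fold and 4.15-fold lower (adjusted p = 0.000743 and 0.00178). ID1 had 15.8, 17.0 and 40.8 CPM after irradiation and 109.7, 93.1 and 124 CPM after etoposide, and irradiated library 3 was the highest of its group.

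Oxidative phosphorylation and glycolysis had medians near the 0.04 of all genes. Of 42 tested subunits of oxidative phosphorylation 3 were higher and none lower (median 0.08), and 1, 1 and 0 were higher without irradiated library 3, etoposide library 1 and etoposide library 2. Of 21 glycolysis genes 3 were higher and 3 lower (median -0.01), or 28.6% called against 21.7% of all genes. The lower ones included the plasma membrane glucose transporters SLC2A1, at 58.3 ± 7.04 against 259 ± 53 CPM (-2.16, adjusted p = 0.00154), and SLC2A3 (-1.56, adjusted p = 0.00261). PFKFB3, which makes the activator of phosphofructokinase, was higher by 0.51 (adjusted p = 0.00331), and PKM, the abundant pyruvate kinase, was not called (0.12, adjusted p = 0.421). Of 30 tested NRF2 targets and detoxification genes 10 were higher and 4 lower (median 0.36), among them ADH1B and FMO2 above. The higher count was 6 without irradiated library 1 and 5 without etoposide library 1 or 2. CYP1B1, a membrane-bound cytochrome P450, was lower by 1.77 (adjusted p = 0.00705), and TXNRD1, the thioredoxin reductase with the highest level of the list, was not called (0.23, adjusted p = 0.127).

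Cytosolic ribosomal proteins had a median of 0.09, with 3 of 76 higher and none lower, and translation factors one of 0.05, with 4 of 41 higher and 1 lower. Ribosomal proteins had from 0 to 5 higher when 1 library was left out, with 0 without irradiated library 1 or etoposide library 2. The shares of footprints, without TMM factors, were 2.15%, 2.16% and 2.34% for ribosomal proteins after irradiation and 1.90%, 1.89% and 1.86% after etoposide. EIF4EBP1, a repressor of cap-dependent initiation, was higher by 0.79 (adjusted p = 0.00948), and the scaffold EIF4G1 was lower by 0.35 on the log2 scale (adjusted p = 0.019), a call lost without any 1 of the irradiated libraries or etoposide library 1 (log2 difference -0.31 to -0.37). EEF2, the elongation factor that moves the ribosome along mRNA, had 3031 ± 217 and 3003 ± 143 CPM and was not called (0.01, adjusted p = 0.958).

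RNA from the same lysates was compared in the same way. At the RNA level 2998 of 13290 tested genes (22.6%) passed, with 1286 (9.68%) above and 1712 (12.9%) below their etoposide level, and with a median of 0.06 over all genes. Without irradiated library 1 the RNA count was 1893 and without etoposide library 2 it was 1841. Of 11712 genes tested in both, 1748 were called in both with the same sign and 0 with opposite signs, 799 were called in footprints and not in RNA, and 1060 in RNA and not in footprints. Across these genes the 2 log2 differences had a Pearson r of 0.859, which is a description, since genes are not independent replicates and both assays share lysates. The RNA differences of the leading genes were of similar size, -6.94 for CXCL5, -7.01 for MMP3, -5.53 for CXCL8 and 3.95 for ADH1B. For several groups the RNA difference was smaller than that in footprints. The list medians in RNA and footprints were -1.13 and -1.58 for ER chaperones, -0.62 and -1.43 for translocon and related subunits, -0.48 and -1.16 for solute carriers, -0.46 and -1.32 for integrins and -0.78 and -1.73 for growth factors. For CCL2 they were -1.37 and -2.61, for INHBA -1.47 and -3.04, and for VCAN -1.17 and -2.46. ATF4 differed by 0.39 in RNA and 0.83 in footprints, and DDIT3 by 0.42 and 1.12.

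**Figure D5:**
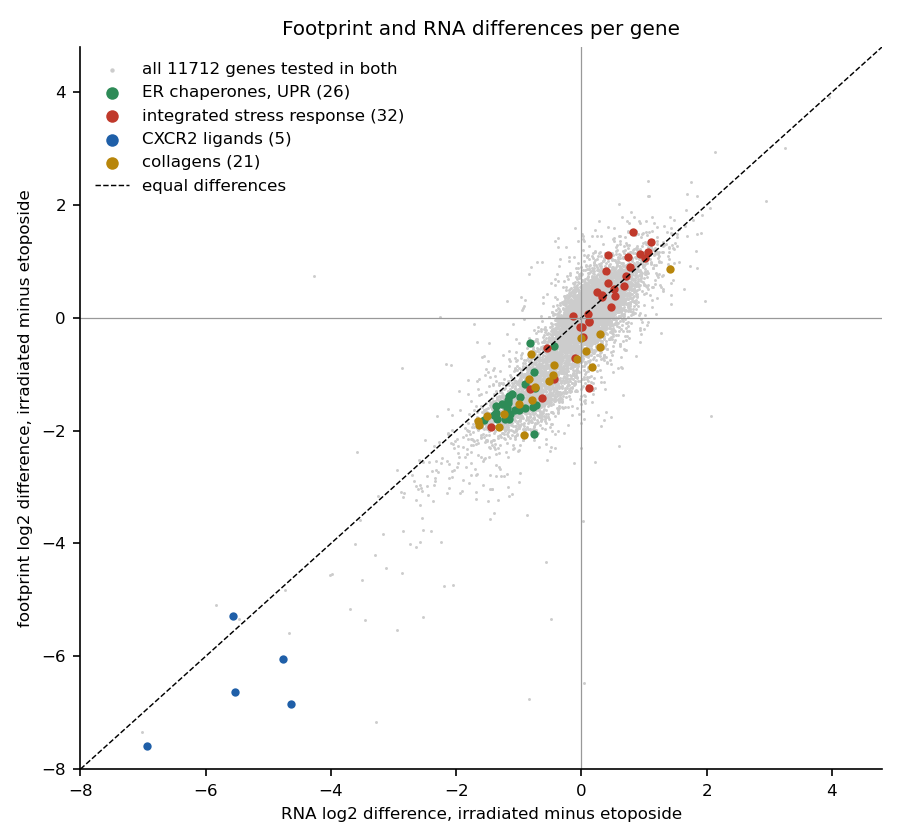
Log2 difference, irradiated minus etoposide, in RNA (x axis) and in footprints (y axis) for the 11712 genes tested in both (grey), with ER chaperones, genes of the integrated stress response, CXCR2 ligands and collagens in colour and a dashed line of equal differences. Pearson r was 0.859, which does not measure closeness to the dashed line, and the 5 CXCR2 ligands lie far to the lower left. List medians in RNA and footprints were -1.13 and -1.58 for ER chaperones, -0.75 and -1.09 for collagens and -5.53 and -6.63 for CXCR2 ligands. For the integrated stress response they were 0.33 and 0.37.

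The difference between both assays was tested as translational efficiency, the ratio of footprints to RNA. No gene of 11712 was called (0%) in edgeR's interaction test over all 27 libraries, where 768 had an unadjusted p under 0.05 and the smallest adjusted p was 0.108. The gaps between RNA and footprints given above were therefore not established for any single gene by this test. DESeq2 called 6 genes. They were the cadherin FAT1 (-1.55), VEGFC (-1.27) and the kinase LMTK2 (-1.49) with lower efficiency after irradiation, and the histone H3C10 (1.44), the NF-kB activator subunit IKBKG (1.00) and the dynactin subunit DCTN5 (0.53) with higher efficiency, all chosen by these calls. Fits restricted to the 12 libraries of the 2 states called 596 genes, 16 higher and 580 lower, and, in a setting chosen after seeing the data, 434 genes when TMM factors were computed within each assay, 25 higher and 409 lower. Those fits estimate the spread from these states alone. The median efficiency difference over all genes was 0.09 in the test over all libraries and -0.08 in the restricted one. With TMM factors within each assay these medians were -0.04 and -0.03. Over all libraries but 1 it ranged from -0.03 to 0.08, so its sign depended on the setting.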

How the data were processed

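Ribosome footprints and RNA were measured in 27 libraries of IMR90 fibroblasts. The deposited files hold the authors' raw counts per gene in the layout of STAR's gene count tables, per the file layout, and are not normalized. Forward-strand counts were used for Ribo-seq and reverse-strand counts for RNA-seq. The submitters' processing notes name STAR 2.7.10b, DESeq2 1.36.0, bcl2fastq and hg38. The annotation and the read trimming are not given in the sources used here. Only uniquely mapped reads were counted, so levels of genes with close paralogs are uncertain. Lines of no gene, 1.91% to 2.93% of uniquely mapped reads in irradiated and 1.51% to 2.04% in etoposide libraries for reads outside any gene, were left out.

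The files share 60534 gene IDs. RefSeq (GRCh38.p14) held 40487 of them, 19299 as protein coding. After edgeR's filterByExpr, counts were scaled by TMM and tested with edgeR 4.0.16 (R 4.3.3) by the robust quasi-likelihood F test. All 14 Ribo-seq libraries were in 1 fit, all 13 RNA-seq libraries in another and all 27 in the interaction test of translational efficiency. Each fit thus also held libraries of cycling cells, quiescent cells and cycling cells given thapsigargin. P-values were adjusted by Benjamini-Hochberg over all tested genes, with a threshold of 0.05. DESeq2 1.42.0 was an alternative. CPM are counts scaled to a common library total by edgeR, with TMM factors. The scripts were tested on simulated data. The counting intervals of ratios cover counting error only.

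The members and gene lists were chosen with earlier results of these data known. Genes named were the 12 with the largest called difference in each direction among those with a mean of at least 10 CPM in the higher group and no overlap, the extreme called members and the most abundant member of each list, and 10 fixed genes. Further members, the motifs and the protein families were chosen after their values were seen. SOD2 and NDUFA4 had no shared ID and were not used here. Alternatives were the fit's libraries, size factors, the filter, strand, gene set, depth, tool, the replicate block and leaving out each library. Results for some members that the rule names are not reported here.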

Additional observations from a re-analysis of the deposited data

How the results depend on the processing

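Of 132 named genes that were called, 111 kept their call and sign in every setting that gave them an adjusted p, of which DESeq2 gave none for CXCL8, and 2192 of 2327 values kept direction and side of the threshold. A fit of the irradiated and etoposide libraries alone called 4136 genes in footprints, 1714 of them higher, and DESeq2 called 1400 higher. Without the thapsigargin libraries the footprint fit called 3289 genes, 1370 higher and 1919 lower. Leaving out 1 library gave 1500 to 2044 called genes, 398 to 694 higher and 1046 to 1350 lower. Without irradiated library 1 these counts were 1500, 454 and 1046, and the higher count was 398 without etoposide library 2 and 553 without etoposide library 1. In RNA the range was 1841 to 2313 genes, with 1841 without etoposide library 2 and 1893 without irradiated library 1. Higher RNA calls ranged from 575 to 892, with 648, 838 and 710 without irradiated library 1, 2 or 3, and 575 and 853 without etoposide library 2 or 3. Labels give replicate numbers. Same-numbered irradiated and etoposide libraries deviated with r = 0.03, 0.06 and 0.006, and irradiated library 3 did not correlate best with its own number, so the numbers were not taken as pairs. Cycling and quiescent libraries, which share the fit, had r = 0.153, 0.272 and 0.264. With the replicate block, 2566 genes were called in footprints, 2952 in RNA and 1 in translational efficiency, FAT1, which was lower. Of the named genes, only CD14 was no longer called (-2.04, adjusted p = 0.0647). For translational efficiency, DESeq2 called 6 genes, 3 higher and 3 lower, and the fit of the 2 states alone 596, 16 higher and 580 lower. Of 2 settings chosen after seeing the data, TMM within each assay called 0, and the same with the 2 states alone called 434, 25 higher and 409 lower.

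With no filter on low counts, COL1A2 (adjusted p = 0.0933), FN1 (0.0722) and SLC7A1 (0.0764) were not called, nor was DES after thinning (0.0557). Of 2063 values of gene lists, 231 changed by over 1.5 times for a count, or by more than the spread between replicates for a median. Reversals were found only for 6 genes that were not called. CDKN2A was at 0.042 after thinning to equal depth and from -0.16 to 0.073 without 1 library. MKI67 ranged from -0.10 to 0.26 without 1 library. PPP1R15A was at -0.0032 in the fit of the 2 states and -0.024 after thinning, and from -0.11 to 0.17 without 1 library. EEF2 was at -0.0097 in the fit of the 2 states, at -0.0051 with no filter and from -0.022 to 0.061 without 1 library. CLDN4 was at 3.14 after thinning and from -3.20 to 0.10 without 1 library, and VWF ranged from -0.27 to 0.54. The cause of these changes was not tested. Irradiated libraries were shallower, which limits genes with few counts, such as CXCL3, MMP10 and FUCA1, more than abundant ones.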
